A study of Homo sapiens with 12 samples.

Results

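The Fc receptors are described here in the HL-60/S4 cell line through 8 genes: *FCGR1A*, *FCGR2A*, *FCGR2B*, *FCGR3B*, *FCER1G*, *FCAR*, *FCAMR* and *FCGRT*. They were chosen by name, as receptors or receptor subunits that bind the constant region of antibodies, and each was matched to 1 row of the deposited table of 58288 genes. HL-60/S4 is an established human acute promyelocytic leukaemia line that grows in suspension. RNA was sequenced from 12 libraries in 4 groups of 3. Undifferentiated promyelocytes received either vehicle (water) or 16 ng/ml TNF-α, and granulocytes, made from the same line over 4 days in ATRA (all-trans retinoic acid, 1 µM), received either vehicle or the same TNF-α. Treatment lasted 2 h in medium supplemented with calcium, all cells were at 8 passages, and every library came from its own flask of the 1 line. P-values therefore measure the spread between flasks of one experiment. The 2 cell types were treated in separate experiments, each with its own vehicle flasks, so the cell type and the experiment cannot be told apart, and differences in level between them are described without a test.

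Fc receptors couple antibodies to cells. The Fcγ receptors bind IgG: FcγRI and FcγRIIa activate phagocytes through a tyrosine motif called ITAM, carried by FcγRIIa itself or, for FcγRI and the IgA receptor FcαRI, by the shared γ chain encoded by *FCER1G*, whereas FcγRIIb carries an inhibitory motif, ITIM, that recruits phosphatases. FcγRIIIb is a lipid-anchored receptor abundant on mature blood neutrophils, FCAMR binds IgA and IgM, and the neonatal receptor encoded by *FCGRT* pairs with β2-microglobulin to protect IgG from degradation and carry it across cells.

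Library totals ran from 22829189 to 31895061 read pairs (median 28233190), and levels are given as normalized counts per 1e6 read pairs (CPM). The floor of 3 counts stood at 0.0945 to 0.136 CPM, and floors and counting intervals cover counting error only. The treatment was checked with *TNF* and *VCAM1*, both called higher in both cell types. *VCAM1* passed the filter on low counts through the TNF-α-treated libraries only, so it could be tested only as a gene that rose. The summed level of 5 promyelocyte marker genes was 7316 to 8142 CPM in vehicle promyelocytes and 2132 to 2344 CPM in vehicle granulocytes, and that of 7 granulocyte markers was 160.2 to 167.9 against 4824 to 5085 CPM. With TNF-α the promyelocyte markers summed to 6062 to 6962 CPM in promyelocytes, with 3 of 5 called lower, and to 2144 to 2351 CPM in granulocytes, with none of the 4 tested called. The granulocyte markers summed to 267 to 282 CPM in promyelocytes (2 called higher and 1 lower) and to 5425 to 5768 CPM in granulocytes, where 3 were called higher and 3 lower and *NCF1* alone went from 1217 to 1949 CPM. Of 6 monocyte and macrophage markers, *MSR1* and *MARCO* were at 0 counts in all 12 libraries, and *CD163* and *MRC1* never exceeded 3 counts. The summed level of those 6 genes was 49.1 to 51.2 CPM in vehicle granulocytes and 30.1 to 33.8 CPM in TNF-α-treated granulocytes, most of it *CSF1R*, and the part of this shift in the results below was not tested. In bulk RNA, fewer cells carrying a transcript and less of it per cell cannot be told apart.

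All 8 genes lie on 2 chromosomes in the hg38 build (GENCODE 27 annotation). On chromosome 1 are *FCER1G* (chr1:161215234-161220699, plus strand), *FCGR2A* (chr1:161505430-161524013, plus), *FCGR3B* (chr1:161623196-161631963, minus), *FCGR2B* (chr1:161663147-161678654, plus), *FCGR1A* (chr1:149782671-149792518, plus) and *FCAMR* (chr1:206957965-206970625, minus). *FCGRT* (chr19:49506816-49526333, plus) and *FCAR* (chr19:54874248-54890472, plus) are on chromosome 19, so 6 of the 8 are on chromosome 1. The IgG receptor genes arose by duplication, and their exons share sequence. Of all 150-base windows within the exons of *FCGR1A*, 60.1% had an exact copy at another place on chromosomes 1 or 19. Copies lay within *FCGR1CP* for 34.5% of the windows, within *FCGR1BP* for 18.8% and outside the Fc receptor genes compared for 23.5%, and a window could have several. The share was 16.1% for *FCGR2B*, with copies in *FCGR2C* and *FCGR2A*, 7.87% for *FCGR3B*, with copies in *FCGR3A*, and 2.87% for *FCGR2A*. It was 0 for the other 4 genes. The authors counted the primary alignment of read pairs that fit several places, so reads of near-identical copies can be split among them. The counts of *FCGR1A*, *FCGR2B* and *FCGR3B* are uncertain in this way, and each was also summed with its named copies, which leaves out copies lying outside these genes.

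Start-site sequences are shown for the 4 Fc receptor genes that fell in granulocytes without overlap between the groups. *FCAMR* passed the filter on low counts through the vehicle libraries only, so it could be tested there only as a gene that fell. The choice therefore sets which promoters are compared, and whether these genes are regulated together was not tested. The sequences run from 250 bases before to 50 bases after the RefSeq start (GRCh38.p14, on the strand of the gene). RefSeq windows matched 7 of the 8 genes (not *FCAR*), and 4 motifs were searched on both strands. Capitals mark the PU.1 core (GAGGAA, or TTCCTC on the other strand), the GAS element (TTCNNNGAA) and the NF-κB consensus.
FCGR1A (chr1:149782444-149782743, plus strand): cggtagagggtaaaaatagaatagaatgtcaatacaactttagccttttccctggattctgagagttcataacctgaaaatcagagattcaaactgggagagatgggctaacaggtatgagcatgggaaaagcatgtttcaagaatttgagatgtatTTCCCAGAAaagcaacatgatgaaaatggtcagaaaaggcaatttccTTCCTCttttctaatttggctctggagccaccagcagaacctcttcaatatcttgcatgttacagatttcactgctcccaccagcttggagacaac
FCGR2A (chr1:161505207-161505506, plus strand): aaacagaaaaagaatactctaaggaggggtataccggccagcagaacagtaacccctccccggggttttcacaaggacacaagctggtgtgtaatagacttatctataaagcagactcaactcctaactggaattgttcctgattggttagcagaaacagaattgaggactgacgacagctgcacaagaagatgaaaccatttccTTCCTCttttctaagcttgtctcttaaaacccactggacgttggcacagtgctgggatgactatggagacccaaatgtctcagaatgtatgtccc
FCGR2B (chr1:161662893-161663192, plus strand): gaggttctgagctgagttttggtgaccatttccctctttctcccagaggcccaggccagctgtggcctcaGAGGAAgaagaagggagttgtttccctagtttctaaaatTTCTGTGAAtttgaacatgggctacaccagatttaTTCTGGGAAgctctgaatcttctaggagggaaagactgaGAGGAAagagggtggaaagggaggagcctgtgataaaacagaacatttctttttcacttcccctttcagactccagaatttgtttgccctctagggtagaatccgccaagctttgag
FCAMR (chr1:206970411-206970710, minus strand): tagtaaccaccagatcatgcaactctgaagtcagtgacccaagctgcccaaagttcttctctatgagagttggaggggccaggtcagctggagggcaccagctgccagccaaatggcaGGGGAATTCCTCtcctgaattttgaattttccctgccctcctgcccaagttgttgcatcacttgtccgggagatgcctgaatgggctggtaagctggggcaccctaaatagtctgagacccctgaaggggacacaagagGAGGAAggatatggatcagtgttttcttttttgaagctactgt

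The *FCGR1A* and *FCGR2A* windows shared an unbroken run of 20 bases around the PU.1 core, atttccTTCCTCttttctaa, at positions -52 to -33 of *FCGR1A* and -51 to -32 of *FCGR2A*, counted from the RefSeq start. It was the longest run that these 2 windows share, looked for after the sequences had been seen, so both hold it by construction. Among 35116 promoter windows of the same length, no others held it. The 7 genes had 11 windows between them, since some have several starts. A PU.1 core was present in 6 of the 11 windows, those of *FCGR1A*, *FCGR2A*, *FCGRT* and *FCAMR* (both) and 1 of *FCGR2B*, and in 27.9% of all windows. A GAS element was present in 2 of the 11 windows, those of *FCGR1A* (TTCCCAGAA) and *FCGR2B* (TTCTGTGAA and TTCTGGGAA) shown, against 7.66% of all windows. The NF-κB consensus was matched once in *FCAMR* (GGGGAATTCC, overlapping a PU.1 core by 4 bases) and once in a second, upstream start-site window of *FCGR2B*, against 11.3% of all windows. The AP-1 element (TGACTCA or TGAGTCA) was in none of the 11 and in 4.95% of all windows. These matches describe letters in the windows and not bound sites.

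Before TNF-α, 6 of the 8 genes were higher in granulocytes than in promyelocytes with no overlap between the vehicle libraries. *FCAR* was lower, also without overlap. The share of all genes that separate in this way is not given here, so nothing is read from the count itself. The largest contrasts were those of the γ chain, the neonatal receptor and *FCAMR*, whereas the IgG receptors *FCGR1A* and *FCGR2A* were already present in promyelocytes. Levels per length of exon compare genes only roughly, since the length covers all annotated exons and reads of near-identical copies can be split. On this scale *FCER1G* stood highest in vehicle promyelocytes at 9.50 ± 0.803 CPM per kb (SD, n = 3). Below it came *FCAR* at 6.45 ± 0.520, *FCGR2A* at 4.36 ± 0.310 and *FCGR1A* at 3.14 ± 0.150, with no overlap between neighbours. *FCGRT*, *FCGR2B* and *FCAMR* were each under 0.2 CPM per kb there. In vehicle granulocytes *FCER1G* reached 244 ± 1.93 CPM per kb. *FCGR1A* came next at 6.82 ± 0.637, then *FCGR2A* at 5.29 ± 0.162, *FCGRT* at 4.45 ± 0.505 and *FCAR* at 4.09 ± 0.143, and of these neighbours *FCGRT* and *FCAR* overlapped. Before division by length, *FCGR2A* stood above *FCGR1A* in these libraries, at 28.1 against 20.4 CPM. With TNF-α, *FCAR* led the order in promyelocytes (21.8 ± 1.83 CPM per kb) and was second to *FCER1G* (269 ± 25.0) in granulocytes at 28.2 ± 1.59. The levels of *FCGRT*, *FCGR1A* and *FCGR2A* overlapped as neighbours in TNF-α-treated granulocytes, at 3.75, 3.73 and 3.29 CPM per kb.

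**Figure D1:**
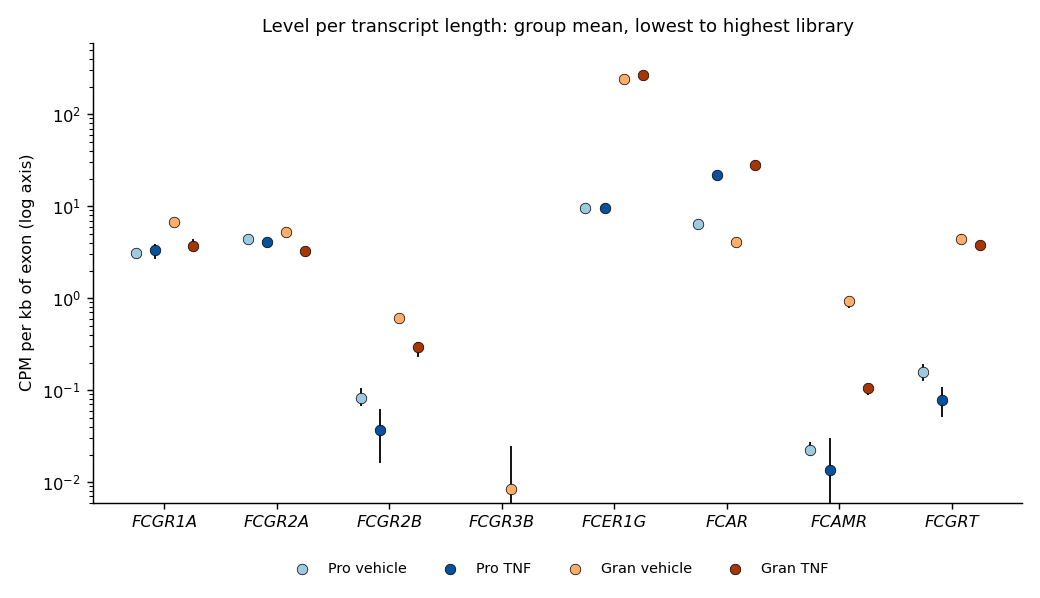
Level of each Fc receptor gene as CPM per kb of exon on a log axis, with the mean of 3 libraries as a point for each of the 4 groups and a line from the lowest to the highest library (Pro, promyelocytes; Gran, granulocytes). *FCER1G* stands at 244 and 269 CPM per kb in granulocytes, far above the rest; *FCGR3B* has 1 point only, at 0.00834 CPM per kb, since the mean of the other groups was 0 and cannot be drawn on this axis.

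More Fc receptor genes passed the test for TNF-α in granulocytes than in promyelocytes. Whether a response itself differed between the cell types was tested separately, as an interaction. In promyelocytes, 6 of the 8 genes passed the filter on low counts and 1, *FCAR*, was called (edgeR quasi-likelihood test, adjusted p below 0.05), beside 14.8% of the 16250 genes tested (8.15% higher and 6.65% lower). In granulocytes, 7 passed the filter and 7 were called, 2 higher and 5 lower, where 49.3% of the 16944 genes tested were called, 24.4% higher and 24.8% lower. The groups did not overlap for 5 of these 7 genes, against 55.1% of all genes tested, and for 3 of 6 in promyelocytes, against 30.9%. Of the latter 3, *FCGR2B* and *FCGRT* passed the filter through the vehicle libraries only, as did *FCAMR* in granulocytes, and nothing is read from these counts for them. The members' counts are to be read against these shares of all genes, and the sizes of the changes are given gene by gene. The median log2 fold change of the tested members was -0.02 in promyelocytes and -0.70 in granulocytes, beside -0.01 and -0.00 over all genes tested. These medians include the genes that passed the filter through the vehicle libraries only, so no shift of the Fc receptors as a group is read from them.

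**Figure D2:**
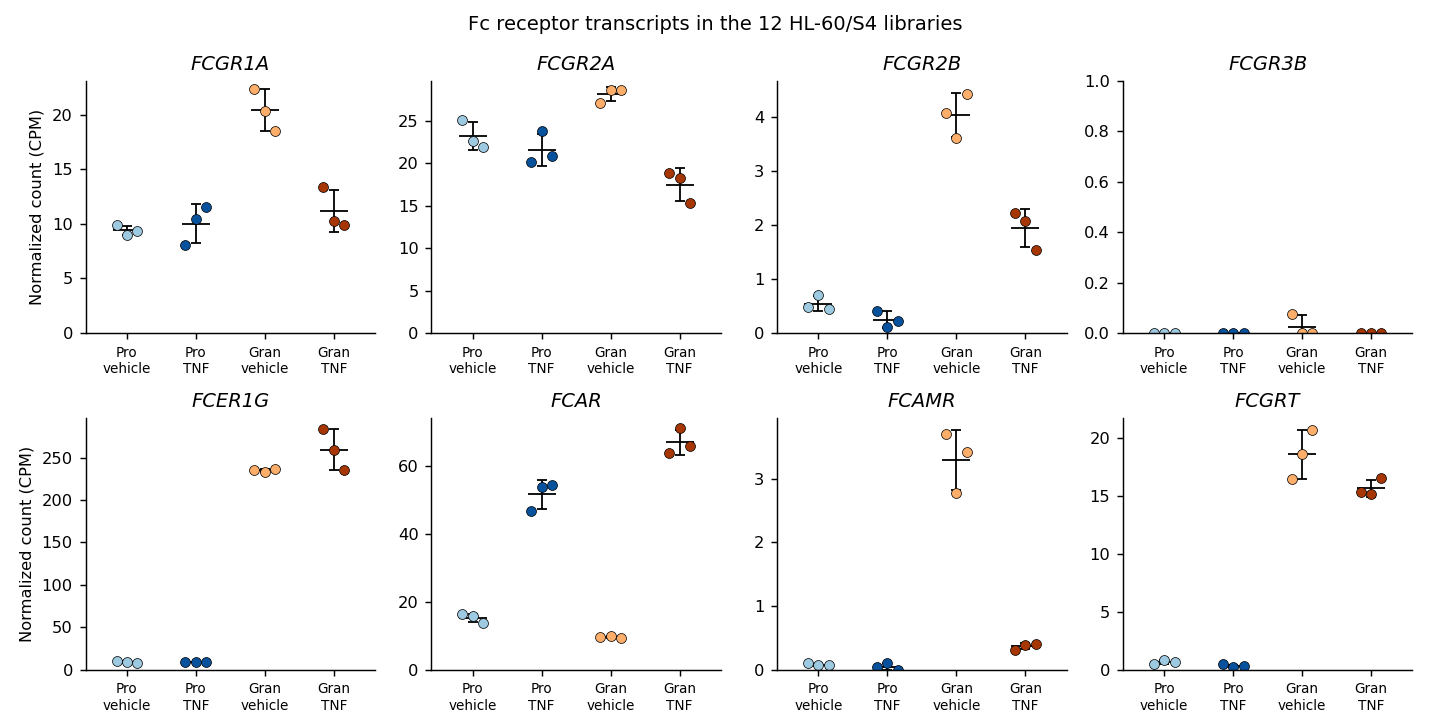
Normalized count (CPM, linear axes from 0 with a separate scale for each gene) of the 8 Fc receptor genes in the 12 libraries. Points are libraries, bars the mean and SD of 3. *FCAR* is raised by TNF-α in both cell types, *FCGR1A*, *FCGR2A*, *FCGR2B* and *FCAMR* stand lower in all 3 TNF-α-treated granulocyte libraries than in any vehicle granulocyte library, and *FCGR3B* shows 1 library above 0.

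*FCGR1A* encodes FcγRI, the high-affinity IgG receptor. In vehicle granulocytes it was at 22.4, 20.4 and 18.6 CPM and in TNF-α-treated granulocytes at 13.4, 10.3 and 9.90 CPM. The groups did not overlap, and the treated granulocytes overlapped the range of the promyelocytes. There the libraries held 9.89, 9.01 and 9.32 CPM with vehicle and 8.05, 10.5 and 11.5 CPM with TNF-α, with overlap. In granulocytes the log2 fold change was -0.89 (SE 0.0955, adjusted p = 5.57e-10), a 1.85-fold lower level, and in promyelocytes 0.12 (SE 0.123, adjusted p = 0.589). Summed with *FCGR1BP* and *FCGR1CP*, the level was 44.5 ± 2.28 CPM (SD, n = 3) in vehicle and 22.1 ± 1.71 CPM in TNF-α-treated granulocytes, a log2 fold change of -1.02 (SE 0.0672, adjusted p = 1.05e-15). In promyelocytes the sum was 14.1 ± 0.773 and 15.4 ± 2.64 CPM, and its log2 fold change of 0.15 did not pass the test (adjusted p = 0.402).

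*FCGR2A* encodes FcγRIIa, the activating low-affinity receptor with its own ITAM. It stood at 27.1, 28.6 and 28.6 CPM in vehicle granulocytes and at 18.9, 18.3 and 15.3 CPM after TNF-α. Every treated library lay below every vehicle library, and also below the promyelocytes. These held 25.0, 22.6 and 21.9 CPM with vehicle and 20.2, 23.7 and 20.8 CPM with TNF-α, with overlap. The log2 fold change was -0.70 (SE 0.0766, adjusted p = 8.69e-10; 1.62-fold lower) in granulocytes and -0.08 (SE 0.0839, adjusted p = 0.583) in promyelocytes. Its exons shared 201 bases (3.78%) with a same-strand gene without a symbol, ENSG00000273112, and read pairs there are left out of both counts.

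*FCGR2B*, the inhibitory IgG receptor, was the least abundant of the IgG receptors that were tested. In granulocytes the 3 vehicle libraries held 106, 109 and 132 counts (4.08, 3.61 and 4.42 CPM) and the treated ones 49, 58 and 34 (2.21, 2.08 and 1.54 CPM), without overlap. This was a log2 fold change of -1.06 (SE 0.188, adjusted p = 1.11e-05) and a 2.09-fold lower level. In promyelocytes it had 15, 19 and 13 counts with vehicle and 11, 3 and 7 with TNF-α. These groups did not overlap, but the gene passed the filter there through the vehicle libraries only, so nothing is read from that. The log2 fold change of -1.12 (SE 0.483) did not pass the test at this depth (adjusted p = 0.139). The sum with *FCGR2C* went from 15.3 ± 0.639 to 7.52 ± 1.32 CPM in granulocytes, with a log2 fold change of -1.02 (SE 0.105, adjusted p = 1.69e-10), and in promyelocytes its log2 fold change was -0.39 (adjusted p = 0.540). Most of the sum in granulocytes was *FCGR2C*, at 11.2 CPM with vehicle and 5.58 CPM with TNF-α, so it says little on *FCGR2B* alone. By the counts of each gene itself, *FCGR1A*, *FCGR2A* and *FCGR2B* were thus lower in the same treated granulocyte libraries.

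*FCGR3B*, the lipid-anchored IgG receptor of blood neutrophils, had 0 counts in 11 of the 12 libraries and 2 counts in the first vehicle granulocyte library. No fold is given and no test was run. A count of 0 allows up to 0.0945 to 0.136 CPM, depending on the library. Its near-identical neighbour *FCGR3A*, the activating receptor of natural killer cells and some monocytes, had 0 counts in all 6 promyelocyte libraries and at most 8 in a granulocyte library. The sum of both genes was therefore at most 8 counts in any library. The labelled granulocytes thus carried many granulocyte markers, with this defining transcript of mature neutrophils at or under the floor.

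*FCER1G*, the γ chain used by FcγRI and FcαRI for signalling, was the member with the highest level in granulocytes. Vehicle granulocytes held 235, 233 and 237 CPM, against 9.89, 9.23 and 8.35 CPM in vehicle promyelocytes. The level was 25.7-fold higher in the granulocyte experiment. TNF-α-treated granulocytes were at 283, 259 and 235 CPM, so 1 treated library lay within the vehicle range and the other two above it. The log2 fold change of 0.13 (SE 0.0529) passed the threshold narrowly (adjusted p = 0.0481), and the call was lost under most other settings. Leaving out the first TNF-α-treated granulocyte library gave a log2 fold change of 0.06 (adjusted p = 0.359), and leaving out any 1 of 4 other libraries also ended the call. In promyelocytes TNF-α-treated libraries held 9.67, 8.93 and 9.23 CPM, and the log2 fold change was 0.04 (SE 0.107, adjusted p = 0.843).

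*FCAR*, which encodes the IgA receptor FcαRI, was the member that rose in both cell types. Vehicle promyelocytes held 16.2, 15.7 and 13.9 CPM and TNF-α-treated promyelocytes 46.5, 53.7 and 54.3 CPM. Vehicle granulocytes held 9.69, 9.99 and 9.32 CPM and TNF-α-treated granulocytes 63.7, 71.0 and 65.6 CPM. No vehicle library overlapped a treated one, and the order of the cell types turned: vehicle granulocytes were 1.58-fold below vehicle promyelocytes, and treated granulocytes 1.30-fold above treated promyelocytes. The log2 fold change was 1.78 (SE 0.0806, adjusted p = 1.62e-12; 3.44-fold) in promyelocytes and 2.77 (SE 0.0701, adjusted p = 1.08e-28; 6.84-fold) in granulocytes. It lay above that of 99.1% of genes tested in promyelocytes and 98.8% in granulocytes.

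Just beyond *FCAR* lies ENSG00000268734 (chr19:54890673-54891420, plus strand), a long noncoding RNA gene on the same strand, separated from the end of *FCAR* by 200 bases. In the later GENCODE 44 annotation *FCAR* extends to the last base of this gene. Its level rose from 6.98 ± 0.451 to 21.1 ± 1.65 CPM (SD, n = 3) in promyelocytes and from 4.02 ± 0.161 to 27.7 ± 1.88 CPM in granulocytes. The log2 fold changes were 1.62 (SE 0.100, adjusted p = 2.20e-10) and 2.76 (SE 0.0953, adjusted p = 2.68e-24). Across the 12 libraries it was the gene with the pattern most like that of *FCAR*: the root-mean-square difference of log2 CPM, each gene centred on its own mean, was 0.13. Next among 18123 genes came *TNF*, the gene of the cytokine itself, at 0.16, and *BTG3* at 0.22. Whether these read pairs belong to *FCAR* transcripts was not tested.

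**Figure D3:**
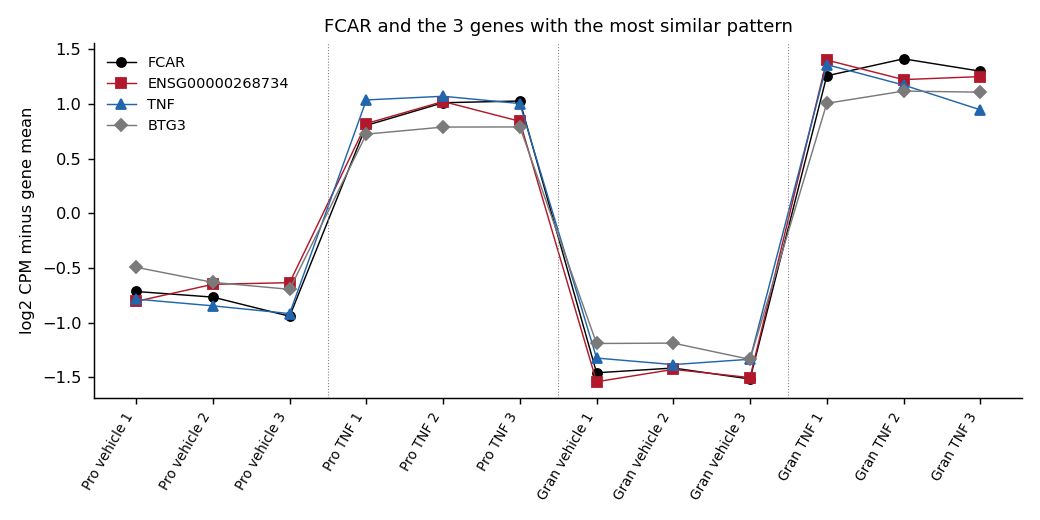
Log2 CPM of *FCAR* and of the 3 genes with the closest pattern, each centred on its mean over the 12 libraries on the horizontal axis, with dotted lines between the 4 groups. The lines join libraries for reading only. All 4 genes are low with vehicle and high with TNF-α in both cell types, and lowest in vehicle granulocytes.

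*FCAMR*, the receptor for IgA and IgM, showed the steepest fall. Vehicle granulocytes had 96, 84 and 102 counts (3.69, 2.78 and 3.42 CPM), and TNF-α-treated granulocytes 7, 11 and 9 counts (0.316, 0.394 and 0.407 CPM). The groups stood far apart, with all treated libraries still above the floor. Its log2 fold change was -3.13 (SE 0.283, adjusted p = 6.87e-12), an 8.78-fold lower level, and 9th from the lowest of the 16944 genes tested. It reached the filter level in the vehicle libraries only, so it could enter this test only as a gene that fell. In promyelocytes it had 3, 2 and 2 counts with vehicle and 1, 3 and 0 with TNF-α, at or under the floor, so it was not tested there and no fold with TNF-α is given. Between the vehicle groups, the ratio of summed counts was 40.6 (95% counting interval 19.5 to 102).

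*FCGRT* encodes the heavy chain of the neonatal IgG receptor. Its level was 28.0-fold higher in vehicle granulocytes (16.5, 18.6 and 20.7 CPM) than in vehicle promyelocytes (0.522, 0.809 and 0.656 CPM). With TNF-α, granulocytes held 15.3, 15.1 and 16.5 CPM, and the highest treated library reached the lowest vehicle library. Its log2 fold change was -0.27 (SE 0.0858, adjusted p = 0.00931; 1.20-fold lower), a call that was lost without the third vehicle granulocyte library (-0.18, adjusted p = 0.113), with DESeq2 (adjusted p = 0.0574) and when all 12 libraries were fitted together (adjusted p = 0.0536). In promyelocytes 16, 22 and 19 counts with vehicle stood against 12, 6 and 10 with TNF-α. The groups did not overlap, but *FCGRT* passed the filter there through the vehicle libraries only, so nothing is read from that. The log2 fold change of -0.99 (SE 0.419) did not pass the test (adjusted p = 0.130), though it did in that joint fit (adjusted p = 0.0306). *B2M*, the gene of its partner β2-microglobulin, had a log2 fold change of 0.15 (SE 0.0534, adjusted p = 0.0198) in granulocytes.

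Whether the response of a gene differed between the cell types was tested as an interaction over the 12 libraries. The cell types were treated in separate experiments, so a difference in response cannot be told apart from one between the experiments. Of the 8 Fc receptor genes 7 were tested and 3 were called, beside 24% of 18124 genes (14.1% higher and 9.88% lower in granulocytes relative to promyelocytes). *FCGR1A* (-0.97, SE 0.170, adjusted p = 1.03e-04) and *FCGR2A* (-0.58, SE 0.119, adjusted p = 6.20e-04) responded more negatively in granulocytes. *FCAR* responded more strongly there, by 1.03 on the log2 scale (SE 0.111, adjusted p = 6.56e-08). Summed with its copies, *FCGR1A* gave -1.14 (adjusted p = 2.63e-07). The difference was not called for *FCGR2B* (0.09, SE 0.423, adjusted p = 0.913), *FCER1G* (0.12, SE 0.107, adjusted p = 0.452), *FCGRT* (0.76, SE 0.338, adjusted p = 0.108) or *FCAMR* (-2.38, SE 1.07, adjusted p = 0.112), whose SEs leave room for sizeable differences in *FCGR2B*, *FCGRT* and *FCAMR*. Summed with *FCGR2C*, the value of *FCGR2B* turned to -0.60 (SE 0.325, adjusted p = 0.200), also not called. The share of called genes with the higher response in granulocytes was 58.86%, and 44.16% to 49.43% with DESeq2 size factors, without a filter, with DESeq2 or with length and GC trends removed. The 3 Fc receptor calls held their direction in all of these.

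**Figure D4:**
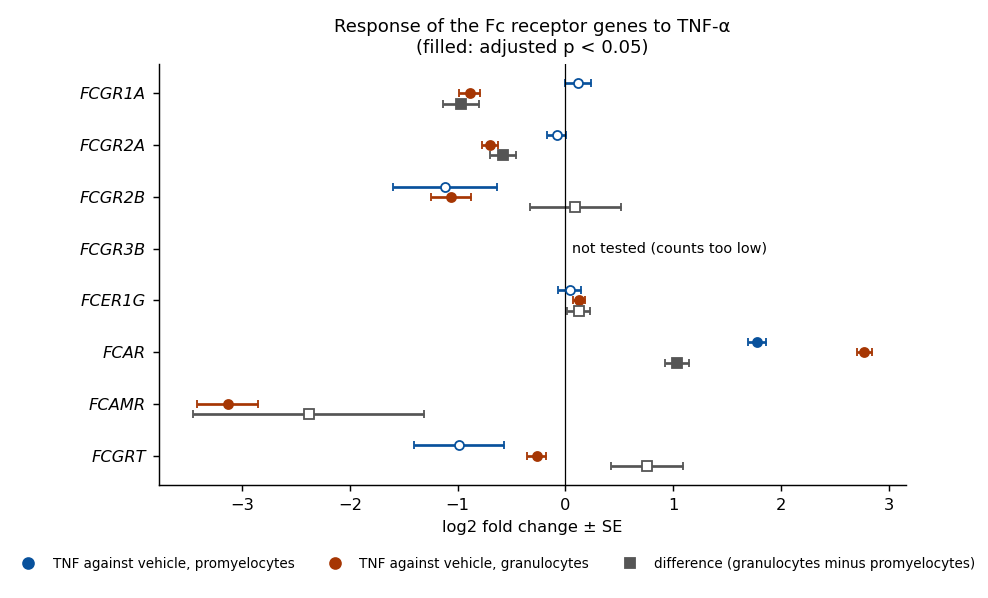
Log2 fold change with TNF-α against vehicle in promyelocytes and granulocytes, and the difference between them, for each Fc receptor gene; bars are SE and filled symbols passed an adjusted p of 0.05. *FCAR* lies to the right in both cell types (1.78 and 2.77) and *FCAMR* farthest to the left in granulocytes (-3.13).

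The rest of the Fc receptor family was examined as a list of 18 genes, with log2 fold changes in parentheses here and for the lists that follow. In promyelocytes 6 were tested, none was called higher and 2 were called lower, *MS4A2* (the β chain of the high-affinity IgE receptor; -0.82, adjusted p = 0.00612) and *TRIM21* (an intracellular antibody receptor; -0.33, adjusted p = 0.0152). In granulocytes 12 were tested, with 2 called higher and 8 lower and a median log2 fold change of -0.67, from which no shift of the family is read. Over all genes tested, 24.4% were called higher and 24.8% lower there, and 8.15% and 6.65% in promyelocytes. The lists that follow are to be read against the same shares. The falls in this list included the duplicates *FCGR1BP* (-0.87), *FCGR1CP* (-1.45) and *FCGR2C* (-1.01). Reads of these can be split with *FCGR1A*, *FCGR2A* and *FCGR2B*, so they are not independent of the members. The IgM receptor *FCMR* also fell (-2.17, adjusted p = 1.04e-06), with 55 to 64 counts with vehicle and 3 to 16 with TNF-α. *MS4A2* (-1.06), *FCRL1* (-0.47), *FCRL2* (-0.42) and *FCRL3* (-1.10) were the others. *FCER2*, which encodes the low-affinity IgE receptor CD23, was higher (17 to 40 counts with TNF-α and 1 to 5 with vehicle; adjusted p = 1.71e-07), as was *FCRL6* (17 to 23 against 4 to 6 counts; adjusted p = 2.55e-04). Both passed the filter through the treated libraries only, and *FCMR* and *FCRL3* through the vehicle libraries only. Of 3 B-cell markers *MS4A1* was at 0 counts in all 12 libraries, and their summed level was 9.27 to 11.2 CPM in vehicle and 8.84 to 9.85 CPM in TNF-α-treated granulocytes.

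Other receptors that signal through the γ chain moved in both directions. Of 12 such genes 7 were tested in promyelocytes, with 2 called higher and 2 lower, and 8 in granulocytes, with 3 higher and 3 lower. The C-type lectin receptors *CLEC4E* (Mincle, 1.64 in promyelocytes and 2.87 in granulocytes) and *CLEC4D* (0.87 and 2.33) rose in both cell types, while *LILRA1* (-0.68 and -1.20) and *LILRA2* (-0.68 and -0.81) fell in both. *LILRA5* fell in granulocytes (-0.46), and *NCR1* was higher there at 10 to 14 counts against 1 to 3, having passed the filter through the treated libraries only. The interaction was called for *CLEC4E* (1.26, adjusted p = 1.08e-04), *CLEC4D* (SE 0.207, adjusted p = 3.71e-06; more positive in granulocytes) and *LILRA1* (-0.48, adjusted p = 0.0116). Among 4 adaptor and light-chain genes, 3 were tested in each cell type and 2 were called, both higher in granulocytes: *HCST* (0.20, adjusted p = 0.0268) and *B2M*.

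Genes acting downstream of the ITAM were split. Of 32, 31 were tested in each cell type, with 5 higher and 6 lower in promyelocytes and 11 higher and 12 lower in granulocytes, and medians of -0.03 and -0.08. *FGR*, a Src-family kinase of the group that phosphorylates the motif, rose in both (1.66 in promyelocytes and 0.68 in granulocytes). *PIK3R5*, a regulatory subunit of phosphoinositide 3-kinase, rose in both (0.74 and 0.62), as did *PRKCD*, a protein kinase C (0.32 and 0.74). The adaptor *GAB2* fell in both (-0.53 and -1.18). *CBLB*, a ubiquitin ligase that restrains these receptors, also fell in both (-0.31 and -0.63), as did the adaptor *LCP2* (-0.24 and -0.74). *SYK*, the kinase that docks on the phosphorylated motif, was named after its values had been seen: it was lower in granulocytes (-0.52, SE 0.0495, adjusted p = 3.34e-11), at 151 ± 7.89 against 214 ± 6.51 CPM.

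The 10 genes of inhibitory signalling were all tested, with 1 higher and 4 lower in promyelocytes and 3 higher and 4 lower in granulocytes, and medians of -0.14 and 0.07. Among the phosphatases recruited by inhibitory receptors, the ones that fell in granulocytes were *PTPN6* (SHP-1) by 0.68 (adjusted p = 1.92e-14) and *INPP5D* (SHIP-1) by 0.39 (adjusted p = 4.82e-08), whereas *PTPN11* (0.10) and *INPPL1* (0.04) did not pass the test. *INPP5D* (-0.33) and *PTPN6* (-0.20, adjusted p = 0.0307) also fell in promyelocytes, as did the adaptors *DOK3* (-0.65) and *DOK2* (-0.29). *DOK2* was higher in granulocytes (0.35), and its interaction was called (0.68, adjusted p = 5.15e-06). *PAG1*, which anchors the Src inhibitor CSK at the membrane, rose in both (0.35 and 0.90).

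**Figure D5:**
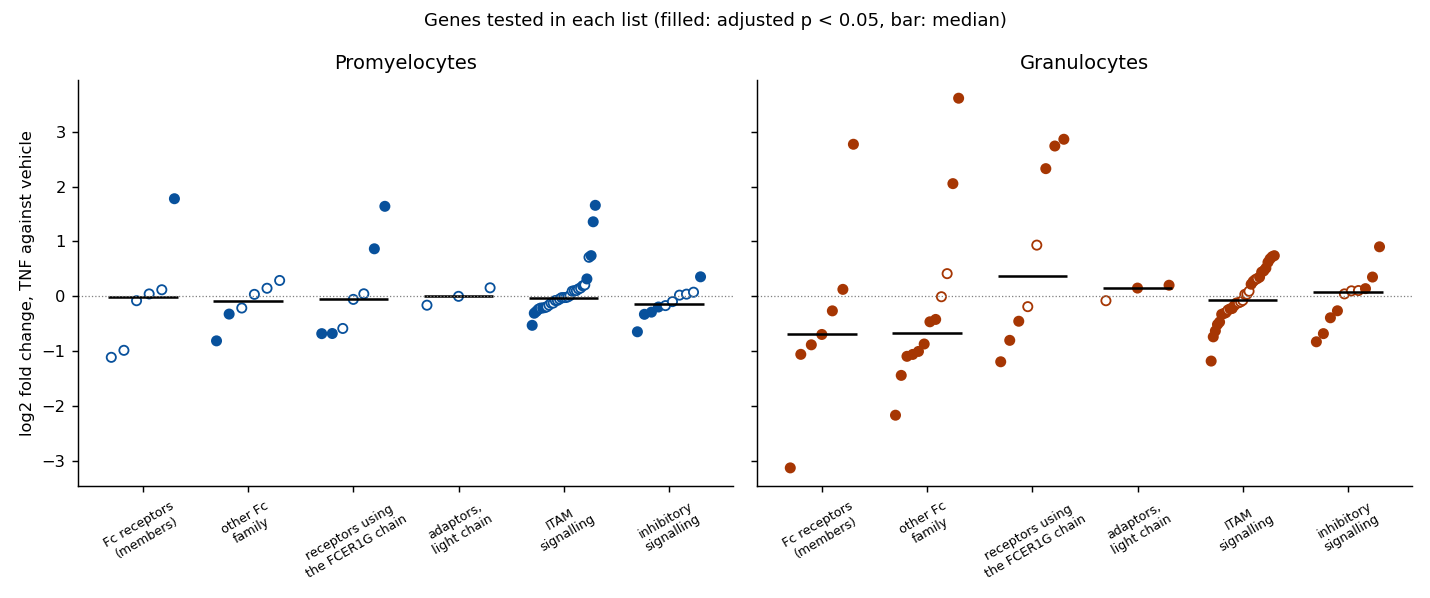
Log2 fold change with TNF-α for every tested gene of the Fc receptors and of 5 related lists, in promyelocytes (left) and granulocytes (right); filled points passed an adjusted p of 0.05 and bars are list medians. In granulocytes the medians of the Fc receptors (-0.70) and of the other Fc family genes (-0.67) lie below 0. Single genes of both these lists lie far above, and both include genes that passed the filter through 1 group only.

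The closest patterns to the other members were found in the same way. For *FCER1G* they were *SLC2A5*, a fructose transporter (difference 0.15), the alarmin *S100A8* (0.19) and *SCUBE1* (0.19). For *FCGR1A* they were ENSG00000229955 (0.14), *TMEM11* (0.17) and *UBALD2* (0.17). *FCGRT* lay nearest to *PADI4*, a neutrophil enzyme that citrullinates histones (0.25), then *TIMP2* (0.28) and *SCUBE1* (0.29). *FCGR2B* lay nearest to *F2RL3* (0.29), *CD1A* (0.29) and *PLA2G2C* (0.31), and *FCAMR* to *WNT5B* (0.34), *GFRA2* (0.40) and *GRIN3A* (0.49). The 12 libraries fall into 4 groups, so such likeness reflects few independent points. *FCGR2A* was left out because its group means spanned less than 1 log2 unit (0.69).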

How the data were processed

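Total RNA was depleted of ribosomal RNA and sequenced in paired ends from 12 HL-60/S4 libraries. Per the labels and file headers, the authors aligned reads with STAR 2.5.3a to hg38 and counted read pairs on GENCODE 27 genes with featureCounts 1.5.2 (primary alignments, both ends mapped, no chimeras, strand option 2). The deposited table holds raw counts, not normalized. Symbols were matched for 57577 of 58288 genes; 711 had none. Groups were taken from sample titles and characteristics.

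Each cell type was fitted alone with the quasi-likelihood test of edgeR 4.0.16 in R 4.3.3, after TMM normalization and filterByExpr (minimum count 10, minimum total 15). P-values were adjusted by Benjamini-Hochberg over all genes tested (threshold 0.05), and differences between cell types were tested as the interaction over 12 libraries. Fold changes were computed with a prior count of 0.125 (the edgeR default), which moderates those of low genes. CPM used TMM sizes over 12 libraries, and pattern likeness used log2 CPM with a prior count of 2. All members were named, and from related lists the called genes with the 3 largest changes in each direction and cell type, and all other Fc family genes. Some genes of these lists are counted but not reported by name here. The members and lists were chosen with earlier results of these data known. Alternatives were DESeq2 1.42.0, other size factors, no filter, a replicate block, trends in length and GC removed, a threshold of 0.01, single libraries left out and, chosen after seeing the data, close copies summed. Libraries of a group differed by more than counting noise (chi-square per gene 3.59 to 14.1), so each was counted as 1 sample. On simulated counts with 200 genes changed by 1.5 on the log2 scale in either direction, the fits recovered 200 with 6 false calls among 16235 genes tested (promyelocytes), 200 with 18 among 16864 (granulocytes) and 200 with 12 among 17962 (interaction). In this simulation the changed genes were drawn from those at higher levels, and all genes had the same spread between libraries. It therefore does not tell how well smaller changes are found, or changes in low genes such as *FCGR2B*, *FCAMR* or, in promyelocytes, *FCGRT*. Promoter windows came from RefSeq (GRCh38.p14).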

Additional observations from a re-analysis of the deposited data

Results flagged for a closer look

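The TNF-α response of 3 Fc receptor genes differed between granulocytes and promyelocytes by the interaction test of edgeR over all 12 libraries. As each cell type was treated in its own experiment, such a difference cannot be told apart from one between the experiments. The difference (granulocytes minus promyelocytes, log2) was -0.97 for *FCGR1A* (adjusted p = 1.03e-04) and -0.58 for *FCGR2A* (adjusted p = 6.20e-04). For *FCAR* it was 1.03 (adjusted p = 6.56e-08). All 3 kept their direction and stayed past the threshold in each of the 12 fits that left out 1 library.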

How the results depend on the processing

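No Fc receptor log2 fold change that had been called turned direction under any alternative run. At a threshold of 0.01, called genes fell in promyelocytes to 1438 (864 higher, 574 lower) and for the difference between cell types to 2843 (1111 lower). Fitting all 12 libraries together called 2 Fc receptor genes in promyelocytes, *FCGRT* added. Leaving out 1 library gave 1598 to 2475 called genes in promyelocytes (945 to 1315 higher, 653 to 1160 lower), with the lowest total without vehicle replicate 2 and 667 lower without TNF-α replicate 2. It gave 7373 to 8010 in granulocytes, with 5 to 7 Fc receptor genes called, and 3605 to 4573 for the difference, with 3 or 4 called. The fourth was *FCAMR*, called without the third TNF-α-treated promyelocyte library (-2.99, adjusted p = 0.0339). *FCER1G* in granulocytes had an adjusted p of 0.0737 without a filter, 0.181 with trends removed, 0.0684 with DESeq2 and 0.0595 in the joint fit. *FCGRT* there had 0.0574 with DESeq2 and 0.0536 in the joint fit. With the replicate block, 1833 genes were called in promyelocytes, 7722 in granulocytes and 3349 for the difference, and among the Fc receptors it ended the call of *FCER1G* alone (adjusted p = 0.113). Same-numbered vehicle and TNF-α libraries did not deviate together (correlations of -0.147 to -0.0442 in promyelocytes and -0.0670 to -0.0131 in granulocytes), and no vehicle library correlated best with its own number, so the numbers were not taken as a pairing. Scaling to raw totals, to DESeq2 size factors or by TMM within a cell type moved a group mean by more than 1 SD in 5 of 96 cases. Depth limits *FCGR3B* in all groups, *FCAMR* in promyelocytes, and *FCGR2B* and *FCGRT* in promyelocytes, where libraries held 3 to 22 counts.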
